A study of Mus musculus with 4 samples.

Results

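The genes that copy DNA and carry cells through mitosis were followed in Hepa1c1c7, a mouse hepatoma cell line, after exposure to diethyl maleate (DEM), a thiol-reactive electrophile that the series title calls an activator of the transcription factor NRF2. The set holds 51 genes, chosen by name for their roles: 25 of the G1/S transition and DNA replication and 26 of the G2/M transition and the spindle. The choice was made with earlier results of these data known. Array probes were taken as theirs where the probe is named by a RefSeq transcript of the gene, which gave 66 probes for 48 of the 51 genes. No probe was matched for Ccnd1, which encodes cyclin D1, for Rrm2, a subunit of ribonucleotide reductase, or for Prc1, a protein of the central spindle, and these were not analysed here. All 48 matched genes passed the filter on dim probes and were well above background on all 4 arrays, and they are 48 of the 15537 genes tested. The 15537 include targets without a matched gene symbol, each counted as a gene under its transcript name.

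The groups were 2 RNA samples of cells given 100 µM DEM and 2 of cells that received only DMSO (dimethyl sulfoxide), the solvent, all exposed for 6 hours, with 1 array per sample. The cells are of 1 established line, and the design text calls the samples independent RNA samples without naming separate cultures, so the p-values measure a spread that may be technical. The extract protocol mentions liver tissue while the other labels name the cell line. All 4 arrays lay on 1 slide and shared 1 scan time. Each array averages all cells of a culture, so a change in the share of cells in a phase of the cycle and a change in RNA per cell cannot be told apart.

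Passage through the cell cycle is driven by waves of transcription. Cyclin D and cyclin E kinases inactivate the retinoblastoma protein and free E2F factors, which switch on the genes that license origins, unwind DNA, supply deoxynucleotides and build the replication fork. Later, the MuvB complex with B-MYB and FOXM1 switches on the genes of mitosis, through a promoter element called the CHR. CCAAT boxes are a further element of such promoters. Dividing hepatoma lines express both waves, whereas most hepatocytes of an adult liver are quiescent.

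Known NRF2 targets were higher in DEM. Hmox1, the NRF2 target that breaks down haem, had a log2 change of 4.55 ± 0.13 (DEM minus DMSO, SE, n = 2 arrays per group here and throughout), with Nqo1 at 2.35 ± 0.10 and Gclm at 2.01 ± 0.11 (limma adjusted p from 0.00442 to 0.0229). Of 13 hepatocyte and hepatoma markers 10 had a probe and 6 were tested, of which limma called 0 and 3 of 6 were higher in DEM at an unadjusted p under 0.05, against 9.02% of all genes. The 6 had a median log2 change of 0.21, and the 3 were Foxa2 (0.45), Afp (0.29) and Apob. Apob had 9.63% and 22.5% in the DEM arrays, against 2.71% and 0.674% in the DMSO arrays, and was well above background on both DEM arrays and 1 DMSO array. The keratins Krt8 and Krt18, the fetal liver gene Afp, and Alb and Foxa2 were well above background on all 4 arrays. Ttr, Apoa1, Hnf4a and Cyp2e1 were well above background on none. The endothelial markers Pecam1, Cdh5, Kdr, Tek and Vwf were also well above background on none, and Stab2 was so on all 4, with a log2 change of -0.011. Of the leukocyte markers Adgre1 and Itgam were well above background on none, Ptprc and Lyz2 on 1 DMSO array, and Csf1r and Cd3e on all 4, with log2 changes of 0.42 and -0.30 that were not called (limma adjusted p = 0.362 and 0.234). Of 8 fibroblast and stellate markers 6 were well above background on all 4 arrays, with a median log2 change of -0.14 and 0 called. The part of these markers in the results was not tested. Across the genes tested, which are not independent replicates, the DEM pair of arrays had r = 0.9942 and the DMSO pair r = 0.9940.

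None of the 48 genes was called different between DEM and DMSO. limma called 0 of the 48 at an adjusted p under 0.05 (Benjamini-Hochberg over all genes tested), against 1.22% of all genes (0.714% higher and 0.508% lower in DEM). The lowest limma adjusted p among them was 0.208, for Cdc6. At an unadjusted p under 0.05 there were 2 of 48, or 4.17%, both lower in DEM and both in the G1/S list, against 19.2% of all genes (9.02% higher and 10.2% lower). The log2 changes ran from -0.40 to 0.17, and 45 of 48 (93.8%) were smaller than 0.25 in either direction, against 69.9% of all genes. The members were also brighter, with a median signal of 1238% of the array's 75th percentile, against 115% for all genes. Of all genes, 14576 of 15537 were well above background on all 4 arrays. The part of brightness in the smaller changes and narrower intervals of the members was not tested.

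The intervals belong to 1 probe per gene and 1 scaling. They rest on a spread that may be technical, so they do not bound the effect of DEM. The 95% interval of the log2 change stayed within 1 in either direction, a doubling or a halving, for 48 of 48 members, against 88.9% of all genes. It stayed within 0.5 for 42 of 48 members (87.5%), against 54.3% of all genes. Across members the intervals reached from -0.94, at Cenpa, to 0.42. The median SE was 0.10 for the members and 0.11 for all genes.

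**Figure D1:**
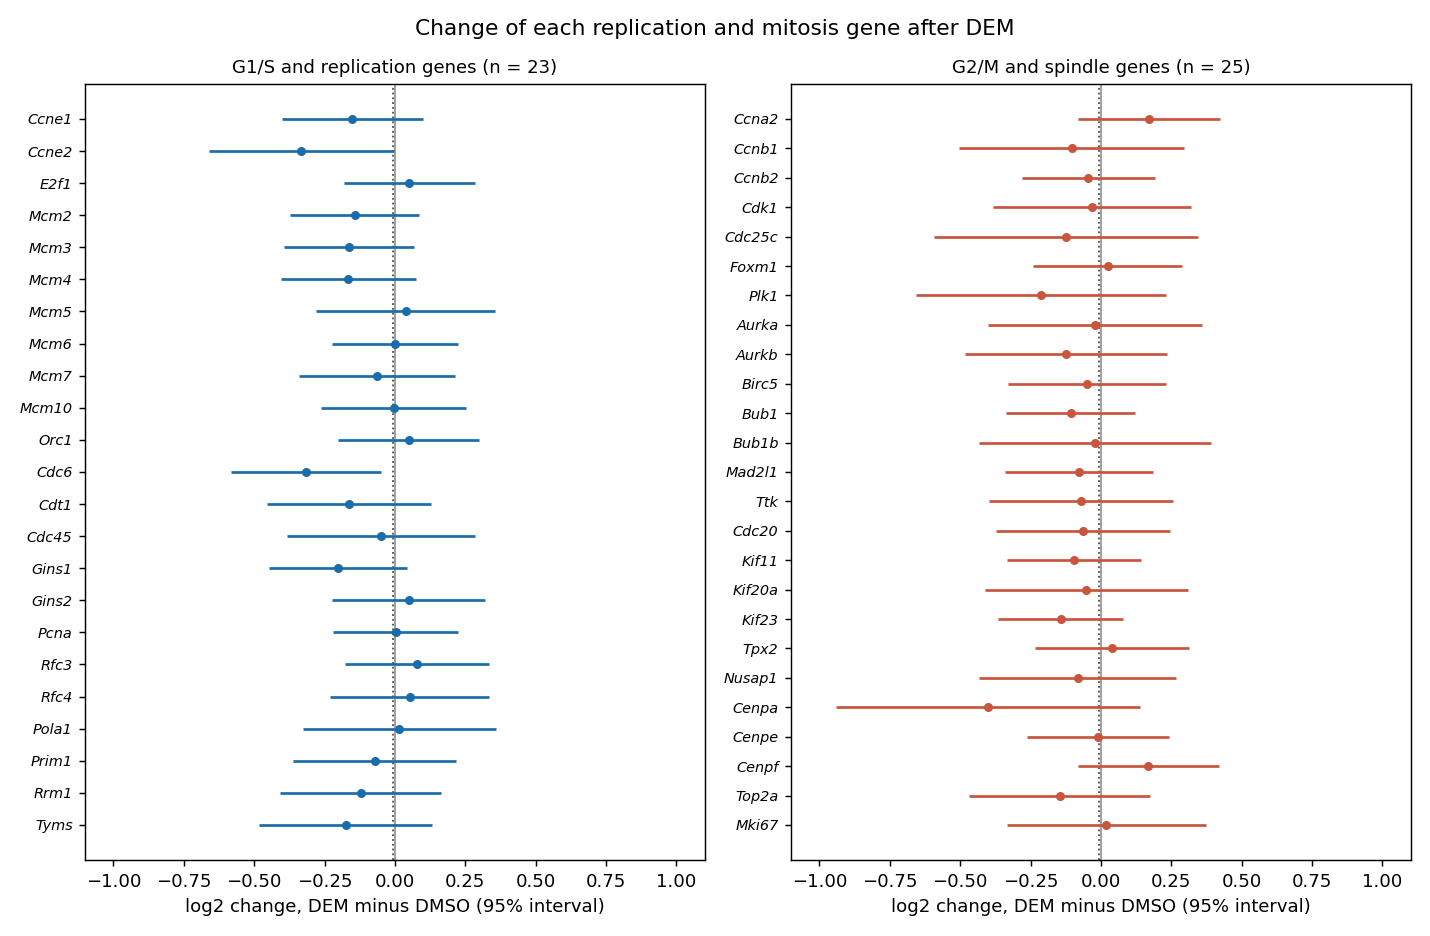
Log2 change of each measured gene, DEM minus DMSO (x axis), with its 95% interval from limma (bars), for the 23 G1/S and replication genes and the 25 G2/M and spindle genes; the dotted line is the median of all genes tested. Every interval lies between -1 and 1, and those of Ccne2 and Cdc6 end below 0.

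The medians of the G1/S genes and of the G2/M genes differed by less than the spread between single arrays. The median log2 change was -0.063 over 23 G1/S and replication genes and -0.063 over 25 G2/M and spindle genes, beside -0.0061 over all genes tested. The difference of the list medians was 0.00022. It ran from -0.10 to 0.065 when 1 array was left out, so its sign depended on single arrays. The G1/S changes ran from -0.33 to 0.077 and the G2/M changes from -0.40 to 0.17.

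Small shifts below 0 were common in both lists, and their sign followed the scaling of the arrays. With scaling on the 75th percentile of each array, 15 of 23 G1/S genes and 20 of 25 G2/M genes had a log2 change below 0, as did 51.2% of all genes. With scaling on the array median the counts were 8 of 23 and 3 of 25, and with scaling on spike-in probes 22 and 23. Median scaling moved the median change of all genes to 0.14 and spike-in scaling to -0.078. Relative to the median of all genes, both lists stood at -0.057 under these 3 scalings, which add 1 constant per array and so cannot move it. After quantile normalization the G1/S list stood at -0.093 and the G2/M list at -0.077, and under normexp at -0.029 and -0.056. In a fit that left out DEM replicate 2 the G2/M list stood at 0.0053 relative to all genes, and in one that left out DMSO replicate 1 at 0.026. In those fits the G1/S list stood at -0.091 and -0.036.

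**Figure D2:**
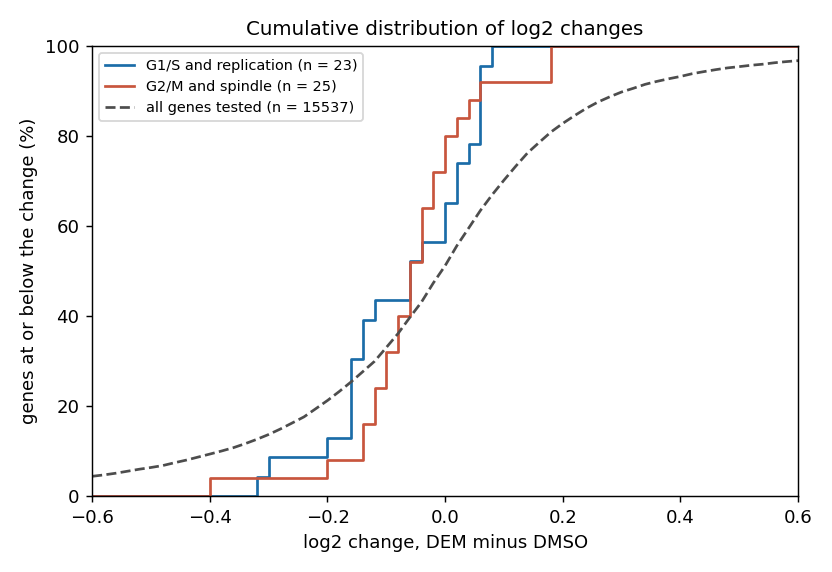
Cumulative share of genes (y axis, percent) at or below each log2 change, DEM minus DMSO (x axis), for the 23 G1/S and replication genes, the 25 G2/M and spindle genes and all 15537 genes tested. Both lists rise steeply around their medians of -0.063, while the curve of all genes spreads more widely.

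The mitotic genes differed between replicates of a group at least as much as between DEM and DMSO. The G2/M median of replicate 1 minus replicate 2 was 0.071 within DEM, with 7 of 25 genes lower in replicate 1, and 0.19 within DMSO, with 5 of 25 lower in replicate 1. For the G1/S genes the same differences were 0.030 within DEM and 0.085 within DMSO, and for all genes -0.0064 and 0.042. Each gene was also set against its own mean over the 4 arrays. The G2/M median then stood at 0.017 and -0.083 on the DEM arrays, against 0.12 and -0.082 on the DMSO arrays. The G1/S median stood at -0.058 and -0.034 on the DEM arrays, against 0.057 and 0.0050 on the DMSO arrays. For the mitotic list, replicate 1 was the higher array in each group, and for the G1/S list both DEM arrays lay below both DMSO arrays.

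**Figure D3:**
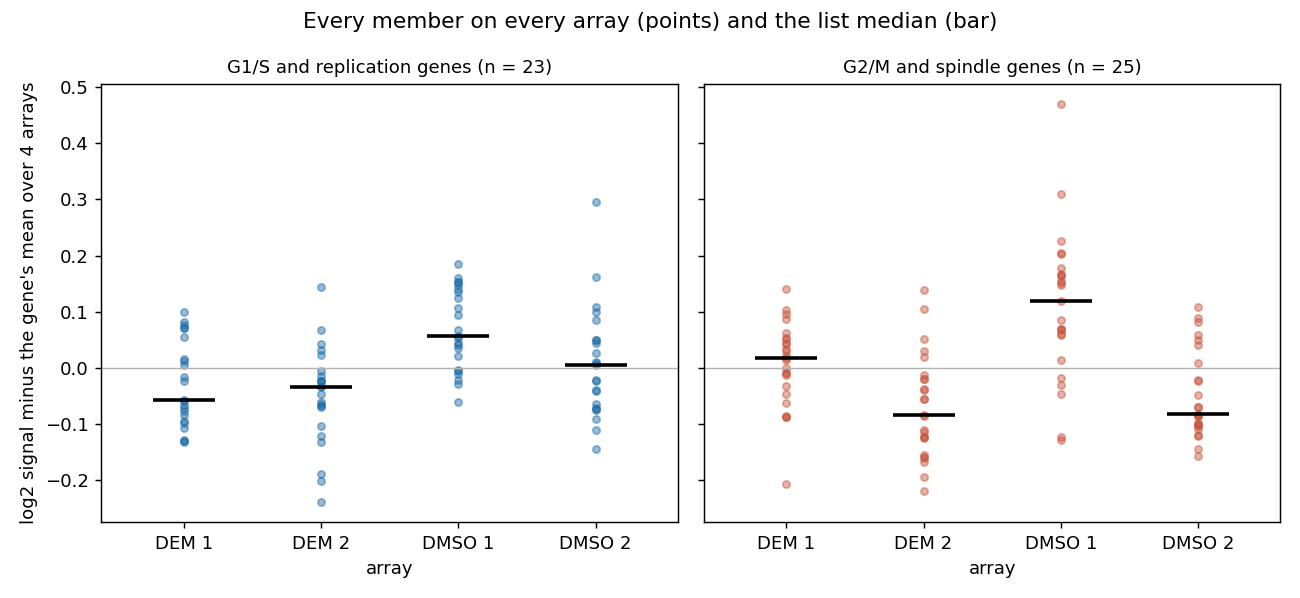
Log2 signal of each member minus its mean over the 4 arrays (y axis) on each array (x axis; points are genes, bars the list median). The G2/M medians are 0.017 and -0.083 on the DEM arrays and 0.12 and -0.082 on the DMSO arrays; the highest point, on DMSO replicate 1, is Cenpa.

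The count of genes whose arrays did not overlap differed between the lists, by an amount that depended on the processing. Of the G1/S genes, 10 of 23 (43.5%) were lower on both DEM arrays than on either DMSO array and 1 was higher on both, against 25.6% and 24.9% of all genes tested. Of the G2/M genes, 4 of 25 (16%) were lower and 2 higher. With median scaling the G1/S count was 2 lower and 8 higher and the G2/M count 0 and 6, against 11.6% and 44.3% of all genes. With spike-in scaling the counts were 11 and 0 for G1/S and 5 and 1 for G2/M, against 29.0% and 12.9%. After quantile normalization they were 12 and 0 for G1/S and 9 and 2 for G2/M, against 26.5% and 24.7%. The difference between the lists was not tested.

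The promoters were searched for the E2F core, the CHR and the CCAAT box, which the choice of genes did not use. RefSeq promoters (build GRCm38.p6) were matched for 40 of the 51 genes, 20 in each list, and searched on both strands over the 250 bases before the annotated start, with overlaps between motifs allowed. Ccnd1, Ccne2, Mcm4, Gins1, Gins2, Ccna2, Cdc25c, Foxm1, Aurkb, Kif20a and Tpx2 were without an entry. The E2F core was searched as TTCCCGC, as TTCGCGC, as TTGCCGC and as TTGGCGC. It was found in 10 of 20 G1/S promoters and 3 of 20 G2/M promoters, against 9.01% of 27025 genes in the table. The CHR (TTTGAA) was found in 2 of 20 G1/S promoters and 7 of 20 G2/M promoters, against 18.3% of all. The CCAAT box (CCAAT) was found in 14 of 20 and 17 of 20, against 37.5% of all. A match is a description of the letters and not a site shown to be bound.

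The stretches that hold the matches are given for 3 G1/S genes and 3 G2/M genes, to show the E2F cores of the first and the CHR beside CCAAT boxes of the second. Matches are in capitals, read 5′ to 3′ on the gene's strand, and adjoining or overlapping matches run together. Mcm6 lies at chr1:128359710-128359819 (minus strand), Orc1 at chr4:108579329-108579438 (plus) and Cdc6 at chr11:98908008-98908024 (plus). Cdc20 lies at chr4:118437344-118437401 (minus), Kif11 at chr19:37376332-37376373 (plus) and Cdk1 at chr10:69352917-69353125 (minus), which has both kinds of match.
Mcm6: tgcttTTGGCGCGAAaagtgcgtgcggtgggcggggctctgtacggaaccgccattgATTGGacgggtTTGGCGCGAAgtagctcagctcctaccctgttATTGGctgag
Orc1: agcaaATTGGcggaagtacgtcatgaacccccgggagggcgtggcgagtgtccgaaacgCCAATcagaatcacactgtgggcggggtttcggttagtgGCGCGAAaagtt
Cdc6: ggagaGCGGGAAatcgc
Cdc20: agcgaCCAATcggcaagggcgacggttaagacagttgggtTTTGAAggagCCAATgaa
Kif11: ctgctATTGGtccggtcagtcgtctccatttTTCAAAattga
Cdk1: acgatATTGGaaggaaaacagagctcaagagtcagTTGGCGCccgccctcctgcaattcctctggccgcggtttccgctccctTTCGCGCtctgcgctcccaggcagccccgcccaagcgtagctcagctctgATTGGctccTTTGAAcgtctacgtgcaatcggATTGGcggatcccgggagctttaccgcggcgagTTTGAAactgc
The changes of these 6 genes were -0.00019 for Mcm6, 0.049 for Orc1, -0.32 for Cdc6, -0.063 for Cdc20, -0.10 for Kif11 and -0.031 for Cdk1 on the log2 scale.

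Among the G1 cyclins and E2F, which start the cycle, cyclin E showed small negative changes that were not called. Signals are in percent of the 75th percentile that each array's own non-control spots gave. Ccne2, a cyclin that activates CDK2, had 46.6% and 44.3% in the DEM arrays, against 52.3% and 62.6% in the DMSO arrays. Both DEM arrays were below both DMSO arrays, and the log2 change was -0.33 ± 0.12 (95% interval -0.66 to -0.0021, limma adjusted p = 0.257). Its other tested probe gave a log2 change of -0.29. Ccne1, the other E-type cyclin, had 2283% and 2311% in the DEM arrays, against 2669% and 2437% in the DMSO arrays. The groups again did not overlap, but the log2 difference of -0.15 ± 0.094 was not called (limma adjusted p = 0.465). A second Ccne1 probe gave -0.30. E2f1, the factor that turns on replication genes, had 349% and 369% in the DEM arrays, against 346% and 347% in the DMSO arrays. Both DEM arrays were above both DMSO arrays, though within a narrow band, and a second E2f1 probe gave 0.14. The log2 change was 0.051 ± 0.087, with an interval of -0.18 to 0.28 and a sign that turned under normexp and spike-in scaling.

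The MCM genes stayed near their DMSO level. MCM2 to MCM7 form the ring-shaped helicase that unwinds DNA at the fork, and MCM10 helps to activate it. Mcm4 had 4584% and 4905% in the DEM arrays, against 5263% and 5380.1% in the DMSO arrays, with a log2 change of -0.17 ± 0.089 (limma adjusted p = 0.403). Mcm3 had 1182% and 1146% in the DEM arrays, against 1278% and 1327% in the DMSO arrays, with a log2 change of -0.16 ± 0.085 (limma adjusted p = 0.393). In both, and in Mcm2 (-0.14), the 2 DEM arrays lay below the 2 DMSO arrays. For the other 4, Mcm5 (0.038), Mcm6 (-0.00019), Mcm7 (-0.063) and Mcm10 (-0.0047), the arrays of the groups overlapped. Of the 7 genes 0 were called and 0 had an unadjusted p under 0.05, and the median log2 change was -0.063. Subunits of 1 complex therefore lay between -0.17 and 0.038.

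Among the genes that license and fire origins, Cdc6 had the lowest p of all 48 members. CDC6 acts with the origin recognition complex to load the helicase. Its gene had 382% and 341% in the DEM arrays, against 447% and 450.3% in the DMSO arrays. Both DEM arrays were below both DMSO arrays, with a log2 change of -0.32 ± 0.10, an interval of -0.58 to -0.049, an unadjusted limma p of 0.0295 and a limma adjusted p of 0.208, which ranged from 0.0582 to 0.867 over the 14 alternatives. Its other probe gave -0.20. Gins1, a subunit of the GINS complex that travels with the helicase, had 955% and 917% in the DEM arrays, against 1117% and 1039% in the DMSO arrays. Its groups did not overlap, with a log2 change of -0.20 ± 0.092 (limma adjusted p = 0.328), beside -0.24 on its other probe. Cdt1, a partner of CDC6, had a log2 change of -0.16, and Cdc45, which completes the active helicase, had -0.050. Orc1, the largest subunit of the origin recognition complex, had 0.049 and Gins2 0.050. Of these 6 genes 0 were called and 4 had a change below 0.

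The genes of the replication fork lay between -0.072 and 0.077 on the log2 scale. Pcna, the sliding clamp that holds polymerases on DNA, had 7356% and 7207% in the DEM arrays, against 7221% and 7316% in the DMSO arrays. The 4 arrays could not be separated, with a log2 change of 0.0025 ± 0.083 and an interval of -0.22 to 0.23. Rfc3, a subunit of the clamp loader, had 765% and 703% in the DEM arrays, against 712% and 678% in the DMSO arrays. Its log2 change was 0.077 ± 0.10, the most positive of the G1/S list, and its groups overlapped. Prim1, the primase that starts new strands, had 1783% and 1858% in the DEM arrays, against 2049% and 1786% in the DMSO arrays, with a log2 change of -0.072 ± 0.11. Rfc4, of the clamp loader, had 0.053 and Pola1, the polymerase that extends primers, 0.016. In all 5 genes the groups overlapped and limma called 0 (median 0.016).

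Of the genes that supply deoxynucleotides, Tyms and Rrm1 were measured. Tyms, thymidylate synthase, had 2721% and 2367% in the DEM arrays, against 2989% and 2749% in the DMSO arrays, and a log2 change of -0.18 ± 0.11 (limma adjusted p = 0.486). Rrm1, the large subunit of ribonucleotide reductase, had 1439% and 1434% in the DEM arrays, against 1675% and 1458% in the DMSO arrays, and a log2 change of -0.12 ± 0.11 (limma adjusted p = 0.606). Both genes were lower on both DEM arrays than on either DMSO array and neither was called. For Rrm1 the sign turned under median scaling.

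Among mitotic cyclins and their kinase, Ccna2 was the gene with a positive change on both DEM arrays. Ccna2, cyclin A, acts in S phase and in the entry to mitosis. It had 3068% and 2841% in the DEM arrays, against 2556% and 2690.1% in the DMSO arrays. The groups did not overlap, and the log2 change of 0.17 ± 0.094, the most positive of all 48, was not called (limma adjusted p = 0.41). Ccnb1, cyclin B, had 968% and 839% in the DEM arrays, against 1075% and 871% in the DMSO arrays. The groups overlapped, with a log2 change of -0.10 ± 0.15 and values of 0.030 and -0.16 on its other probes. Cdk1, the kinase that drives mitosis, had 3251% and 2955% in the DEM arrays, against 3477% and 2885% in the DMSO arrays. Its log2 change was -0.031 ± 0.13 (interval -0.38 to 0.32), while its second probe gave -0.43 (limma adjusted p = 0.158 with every probe tested). Cdc25c, the phosphatase that activates CDK1, had a log2 change of -0.12 ± 0.17. Ccnb2 had -0.044, and Foxm1, the transcription factor of the mitotic wave, 0.024. For Ccnb1, Cdk1 and Cdc25c the sign turned under median scaling and when DEM replicate 2 or DMSO replicate 1 was left out.

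The mitotic kinases and passenger proteins had overlapping groups. Plk1, a kinase of spindle assembly and mitotic entry, had 2100.5% and 1932% in the DEM arrays, against 2688% and 2027% in the DMSO arrays. DMSO replicate 1 stood above the other 3 arrays, and the log2 change was -0.21 ± 0.17 (interval -0.66 to 0.23, limma adjusted p = 0.561). It ran from -0.42 to -0.0092 over the alternatives. Aurkb, the kinase of the chromosomal passenger complex, had 303% and 278% in the DEM arrays, against 349.6% and 287% in the DMSO arrays, again highest on DMSO replicate 1. Its log2 change was -0.12 ± 0.13, with a sign that turned under median scaling and without DMSO replicate 1. Aurka, the spindle pole kinase, had -0.020 and Birc5, the passenger protein survivin, -0.048.

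Spindle checkpoint genes stayed within -0.11 and -0.020 on the log2 scale. Bub1, a checkpoint kinase at kinetochores, had 365% and 383% in the DEM arrays, against 404% and 402% in the DMSO arrays. Both DEM arrays were lower, and the log2 difference was -0.11 ± 0.085 (limma adjusted p = 0.568). A second Bub1 probe gave 0.052. Mad2l1, which restrains the anaphase-promoting complex, had 415% and 375% in the DEM arrays, against 425% and 407% in the DMSO arrays and a log2 change of -0.077 ± 0.10. Both signs turned under median scaling. Cdc20, the activator that the checkpoint holds back, had a log2 change of -0.063, Bub1b -0.020, and Ttk, the kinase that starts the checkpoint, -0.071. The groups overlapped in these last 3 genes.

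Among kinesins and spindle proteins, Kif23 and Kif11 were lower on both DEM arrays without being called. Kif23, a motor of the central spindle, had 250.2% and 256% in the DEM arrays, against 282% and 277% in the DMSO arrays, with a log2 change of -0.14 ± 0.083 (limma adjusted p = 0.436). A second Kif23 probe gave -0.12. Kif11, the motor that separates the spindle poles, had 69.0% and 65.7% in the DEM arrays, against 70.3% and 73.7% in the DMSO arrays, with a log2 change of -0.10 ± 0.089. Its second probe read 3.21% and 3.07% in the DEM arrays, both well above background, against 1.02% and 1.82% in the DMSO arrays, neither of which was. It passed the filter on dim probes through the DEM arrays alone, so no fold change or p-value of it is given. It enters only the alternatives that use every probe or the mean of probes, and the sign of Kif11 turned under the latter. Under median scaling the signs of Kif23 and Kif11 both turned. Kif20a, a motor of cytokinesis, had -0.052, Tpx2, which activates AURKA on the spindle, 0.041, and Nusap1, a microtubule-binding protein, -0.083, with overlapping groups.

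The centromere genes held the widest difference of the set, and it rested on 1 array. Cenpa, the histone variant that marks centromeres, had 73.2% and 73.9% in the DEM arrays, against 117% and 80.5% in the DMSO arrays. DMSO replicate 1 stood apart from the other 3 arrays. The log2 change was -0.40 ± 0.20 (interval -0.94 to 0.14, limma adjusted p = 0.373), and it was -0.13 without DMSO replicate 1. Cenpf, a kinetochore protein, had 1156% and 1246% in the DEM arrays, against 1096% and 1041% in the DMSO arrays. Its DEM arrays were both higher, with a log2 change of 0.17 ± 0.093 (limma adjusted p = 0.416), beside 0.073 on its second probe. Cenpe, the kinetochore motor, had -0.010 on its brightest probe and -0.033 and -0.31 on the others.

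Of the mitotic chromosome genes, Mki67 showed no detectable change and the probes of Top2a differed. Mki67 encodes Ki-67, the coat protein of mitotic chromosomes used as a marker of proliferating cells. It had 2557% and 2917% in the DEM arrays, against 2481% and 2924% in the DMSO arrays. In each group replicate 2 was the higher, and the log2 change was 0.020 ± 0.13 (interval -0.33 to 0.37). The sign turned under 5 of the 14 alternatives, and its second probe gave -0.13. Top2a, the topoisomerase that untangles chromosomes, had 637% and 564% in the DEM arrays, against 709% and 622% in the DMSO arrays. These values overlapped, with a log2 change of -0.15 ± 0.12. Its second, dimmer probe gave -0.55 (limma adjusted p = 0.116 with every probe tested), the lowest adjusted p of any member probe.

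Around the set, genes of the same pathways were taken from further lists of cell cycle genes. These lists, here and below, were chosen with earlier results of these data known, so their counts and shares are descriptions. Of 36 other replication genes tested 1 (2.78%) was called lower and 0 higher, against 0.508% and 0.714% of all genes. At an unadjusted limma p under 0.05, 3 of them (8.33%) were lower and 0 higher, against 10.2% and 9.02% of all genes. Of 44 other mitosis genes limma called 0, and 3 (6.82%) were lower at an unadjusted p under 0.05, a share below the 10.2% of all genes. The called gene was Timeless, a fork protection protein that also has a role in the circadian clock. It had 171% and 164% in the DEM arrays, against 301% and 283% in the DMSO arrays. The groups were far apart for their spread, and it was 1.74-fold lower in DEM (log2 -0.80 ± 0.090; limma adjusted p = 0.0499). Its other probe gave -0.64, and the call was lost under 10 of 14 alternatives, where the limma adjusted p lay between 0.0505 and 0.254. The median log2 change was -0.044 for the other replication genes and -0.048 for the other mitosis genes. Of the other replication genes 17 of 36 (47.2%) were lower on both DEM arrays than on either DMSO array, against 25.6% of all genes. A further 3 (8.33%) were higher on both, against 24.9% of all genes. Both counts are given only for the scaling used in the reported results, and such counts depend on the scaling. For the G1/S list, 10 lower and 1 higher became 2 lower and 8 higher with median scaling. Nuf2, a kinetochore protein with the largest change among those mitosis genes, had -0.38 ± 0.12 (limma adjusted p = 0.201). The replication genes Gmnn, which encodes geminin, the inhibitor of CDT1, and Uhrf1, which maintains DNA methylation, had -0.31 and -0.31 (limma adjusted p = 0.175 and 0.177). The other mitosis genes at an unadjusted p under 0.05 were Smc4, a condensin subunit, at -0.36, and Knl1, a kinetochore scaffold, at -0.34. These 4 genes are named after their values were seen, as the others of their lists at an unadjusted p under 0.05.

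Among E2F factors, pocket proteins and their partners, 1 gene passed the test. Of 17 pocket proteins, E2F factors and partners, E2f2 was called lower (5.88%, against 0.508% of all genes). The number called higher was 0, against 0.714% of all genes, and 16 were not called. E2f2, an activating E2F, had 151% and 128% in the DEM arrays, against 319.5% and 294% in the DMSO arrays. It was 2.20-fold lower in DEM (log2 -1.14 ± 0.12; limma adjusted p = 0.0467), a call lost under 6 of 14 alternatives, where the limma adjusted p lay between 0.0522 and 0.254. At an unadjusted p under 0.05 there were 5 higher and 2 lower of these 17, or 41.2%, against 19.2% of all genes, and the median was 0.083. The 5 higher genes, named after their values were seen, were the MuvB subunits Lin37 (0.51) and Lin54 (0.43), the retinoblastoma gene Rb1 (0.40), and the repressive factors E2f7 (0.43) and E2f6 (0.28), with limma adjusted p from 0.0845 to 0.239. The other gene at that level was E2f5, which had -0.29.

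Of the CDK inhibitors, 4 of 7 were tested and 0 were called. Cdkn1a, the p53 target p21 that restrains cyclin-dependent kinases, had 1210.2% and 1340.1% in the DEM arrays, against 734% and 743% in the DMSO arrays. It stood 1.72-fold higher in DEM, with a log2 change of 0.79 ± 0.10 that missed the threshold (limma adjusted p = 0.0541) and passed it under 4 of the 14 alternatives. Cdkn1c, Cdkn2a and Cdkn2b were not well above background on any array. Cdkn1b had -0.16, Cdkn2c -0.10 and Cdkn2d -0.067. Of 15 checkpoint and p53 genes, which share Cdkn1a with that list, 0 were called and 5 (33.3%, against 19.2% of all genes) had an unadjusted p under 0.05, 3 of them higher in DEM, with a median of 0.19. Beside Cdkn1a these were Mdm2, which degrades p53, at 0.57, and the p53 target Gadd45a at 0.40, with the kinase Atm at -0.40 and the p53 gene Trp53 at -0.28, again named after their values were seen. Of 14 other cyclins, CDKs and CDC25 and WEE1 enzymes tested limma called 0, and Cdk6 alone (7.14%, against 19.2% of all genes) had an unadjusted p under 0.05. Cdk6, a kinase that partners D cyclins, had -0.43. Wee1, the kinase that restrains CDK1, was well above background on both DMSO arrays and on neither DEM array. It read 2.89% and 1.97% in the DEM arrays, against 4.61% and 3.002% in the DMSO arrays. Wee1 is counted among the 14 tested, but it passed the filter through the DMSO arrays alone, so no fold change or p-value of it is given.

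**Figure D4:**
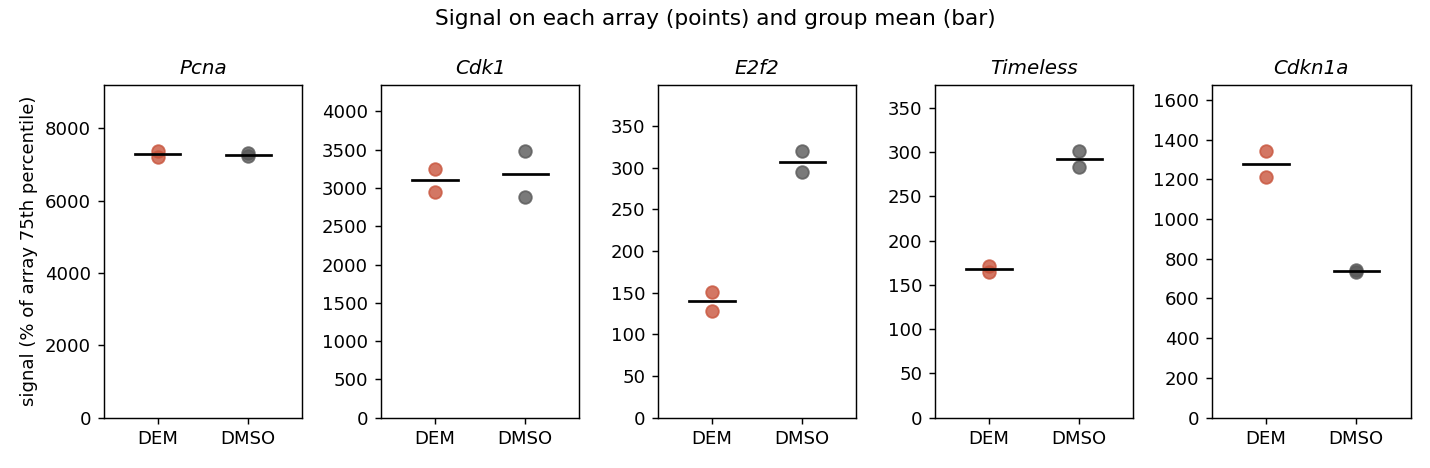
Signal on each array (points, percent of the array's 75th percentile on a linear axis from 0) and group mean (bars) for the members Pcna and Cdk1 and for E2f2, Timeless and Cdkn1a. The DEM and DMSO points of Pcna and Cdk1 overlap; those of the other genes do not, E2f2 being 2.20-fold and Timeless 1.74-fold lower and Cdkn1a 1.72-fold higher in DEM.

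Across the 14 alternatives in processing, limma called 0 members in each, and the lowest limma adjusted p of a member was 0.0582, for Cdc6 under normexp. The plot of list medians shows both lists moving with the median of all genes under median and spike-in scaling. After quantile normalization the median of all genes was -0.011, and those of the G1/S and G2/M lists were -0.10 and -0.088.

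**Figure D5:**
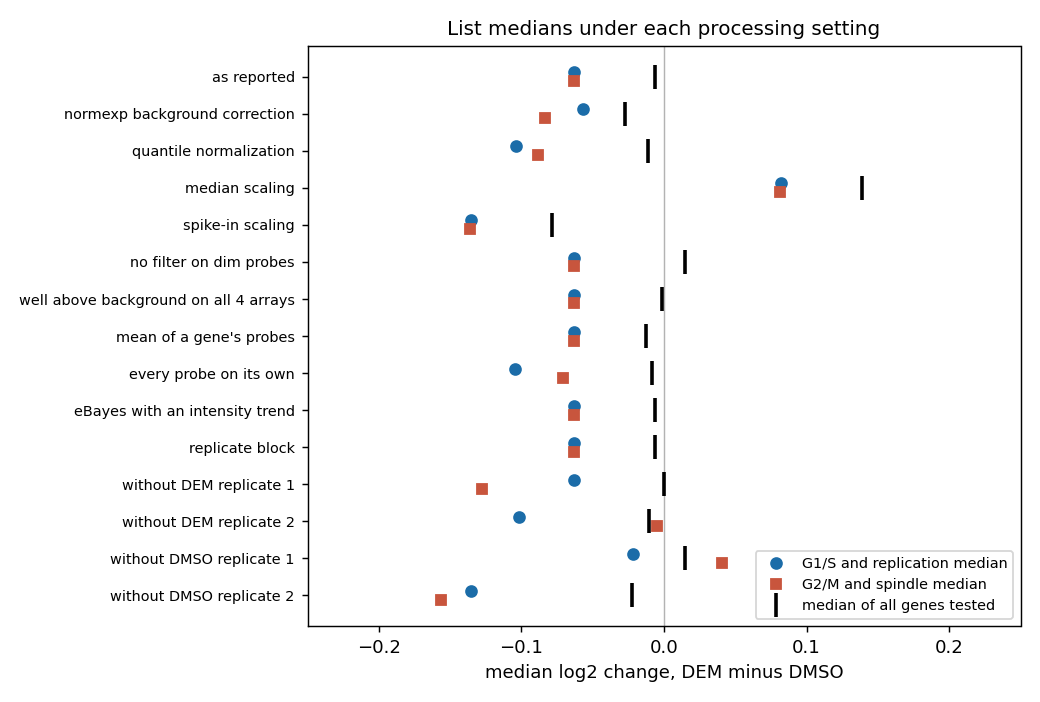
Median log2 change, DEM minus DMSO (x axis), of the G1/S and replication genes (circles), the G2/M and spindle genes (squares) and all genes tested (ticks) under each processing setting (rows). The list medians lie between -0.16 and 0.082, and those of the 2 lists differ most without DEM replicate 2.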

How the data were processed

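Each RNA sample has its own 1-colour array, and group and replicate came from the sample titles. The authors deposited Agilent Feature Extraction output, which per the file headers was made with version 10.7.3.1 on a design annotated on mm9. Its processed signal is a background-subtracted intensity. The authors' deposited value table held the same intensity on all 45018 spots of each array. From there, log2 of the processed signal was taken minus the array's 75th percentile over 43379 non-control spots, flagged outlier spots were dropped, spots of a probe were averaged, and a probe was kept if 2 or more arrays had it well above background. Probes were named through RefSeq transcripts (GRCm38.p6, names and promoters only), which gave 26690 of 41174 probes 1 symbol. Probes without a symbol kept the name of their own transcript, and each such name counts as a gene. A gene can therefore count more than once in the shares of all genes. Each gene used its brightest probe. No array had a saturated spot, and 20744 to 21659 probes were well above background. Arrays give no counts, so no counting interval is given.

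DEM was compared with DMSO with lmFit and eBayes of limma 3.58.1, under R 4.3.3, over 15537 genes. Adjusted p is by Benjamini-Hochberg and the call threshold is 0.05. It called 190 genes, 111 higher and 79 lower. The fit was tested on simulated data. Members, lists and tests were chosen with earlier results of these data known. Genes named are those called, the 2 of each role with the largest change, and the markers E2f1, Pcna, Ccnb1, Cdk1 and Mki67; of other lists, called genes or the largest change. Genes of other lists at an unadjusted p under 0.05 were added after their values were seen, as the text says of them. Alternatives were normexp (offset 50, on the median spot and background signals), quantile, median and spike-in scaling, no filter or a filter on all 4 arrays, the mean of probes, every probe, an intensity trend, a replicate block, and leaving out each array.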

Additional observations from a re-analysis of the deposited data

How the results depend on the processing

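Under all 14 alternatives limma called 0 of the members, and 0 to 7 had an unadjusted p under 0.05. That count was 7 of 48 under normexp, against 23.0% of all genes, and 4 with an intensity trend, against 20.6%. With every probe on its own it was 7 of 66 probes, against 18.6% of all probes. Of those 7 probes 6 were lower in DEM. The other was the second probe of Kif11, which passed the filter through the DEM arrays alone. With the mean of a gene's probes the count was 3, against 18.9% of all genes, and Kif11 was among them through that probe. The count was 0 with median scaling, spike-in scaling or no filter on dim probes, against 19.0%, 10.5% and 9.80% of all genes. The number of genes called over the whole array, 190 as reported, was 800 under normexp, 93 after quantile normalization, 567 with median scaling, 568 with spike-in scaling, 426 with the filter on all 4 arrays, 726 with an intensity trend and 0 with no filter (9.80% of genes at an unadjusted p under 0.05). It was 0 to 121 when 1 array was left out, with 0 in the fits that lacked a DMSO array (12.7% to 16.4% of genes had an unadjusted p under 0.05 in the 4 fits with 1 array left out). Rises made up 58.4% of the calls as reported, 71.3% with median scaling and 34.9% with spike-in scaling. The G1/S median was -0.10 after quantile normalization, 0.082 with median scaling, -0.14 with spike-in scaling and -0.10 with every probe, and it ran from -0.14 to -0.022 when 1 array was left out. The G2/M median was 0.082 with median scaling and ran from -0.16 to 0.041 when 1 array was left out. The difference of medians ran from -0.10 to 0.065 then. The cause of these shifts was not tested. Median and spike-in scaling add 1 constant per array, so they move both lists and all genes alike.

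With the replicate number as a replicate block, limma called 143 genes and 0 members. At an unadjusted p under 0.05 there was 1 of 48 members, against 27.7% of all genes. Deviations of same-numbered arrays correlated at r = 0.14 across all genes and 0.42 across the members, and with 2 arrays per group this cannot show that the numbers pair the samples. The second probe of Kif11 was not well above background in DMSO, so its signal there gives only a bound.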
